A study of Mus musculus with 24 samples.

Results

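The comparison described here asks what the 1g position of a magnet platform did to gene expression in osteocyte-like cells whose connexin 43 hemichannels were blocked. Its members were chosen by their titles: the 3 arrays of Cx43(E2)-treated cells at 1g and the 3 arrays of Cx43(E2)-treated cells in an incubator, 6 of the 24 arrays of the series. All are of total RNA from MLO-Y4, 1 mouse cell line with osteocyte features. Cells of both groups had Cx43(E2), a hemichannel-blocking antibody to connexin 43, in their medium at a 1:50 dilution (28 µg/ml) for 30 min at 37 °C in 5% CO2. One group then went to the place marked 1g of a platform labelled as a high magneto-gravitational environment (HMGE), and the other (C) stayed in the incubator. The rest of the series holds the 2g and μg positions and an arm with an irrelevant rabbit IgG in place of Cx43(E2). How long the cells stayed there is not stated. Whether replicates came from separate cultures is not stated either, so p-values measure only the spread between these arrays. Titles number the arrays 1 to 3 in each group, and arrays of 1 number are called a pair below.

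Osteocytes sense load in bone. Connexin 43 forms gap junctions between them and, in single membranes, hemichannels through which loaded osteocytes release ATP and prostaglandin E2. In magnets of this kind, cells at the 1g position sit in a strong magnetic field while their apparent gravity is that of the laboratory, so 1g against the incubator sets the platform itself apart from altered weight. The field and any other difference between platform and incubator cannot be told apart here.

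The label was checked against markers. Gja1, the gene of connexin 43, had a mean level of 11.69 over the 6 arrays, and Pdpn, which encodes the early osteocyte marker podoplanin, had 12.62 (log2 intensity). Sost (sclerostin) and Fgf23 were at 7.14 and 7.09. Dmp1, Mepe and Phex, matrix and mineralisation genes that define osteocytes in bone, had mean levels of 4.72, 4.62 and 4.63 and stayed below the 40th percentile on 6 of 6 arrays (the percentile lay between 5.91 and 6.08). Of the markers of other cell types, 2 of the 4 measured for osteoblasts, 7 of 10 for macrophages or osteoclasts, 7 of 11 for endothelium, 5 of 7 for chondrocytes, 4 of 5 for adipocytes and 4 of 5 for muscle were above it on 6 of 6 arrays. Among the brightest of these were Ctsk (cathepsin K, 10.79), Alpl (alkaline phosphatase, 10.40), Sox9 (10.02) and Fabp4 (9.86), while Ptprc and Adgre1, of blood cells and macrophages, Sp7 of osteoblasts, Emcn of endothelium and Adipoq of adipocytes were below it on 6 of 6 arrays. The mean level of the macrophage and osteoclast markers was 7.01 to 7.27 in the incubator and 6.95 to 7.19 at 1g, and the ranges of the other lists overlapped between the groups too. The part of these genes in the differences below was not tested.

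Array medians of the 6 arrays lay between 6.5 and 6.65, and 14489 genes were tested. In a principal component analysis of all 24 arrays, the leading component took 44.6% of the variance. Pair 3 of the Cx43(E2) arm lay at -11.86 (1g) and -6.90 (incubator) on it, and pairs 1 and 2 lay between 12.50 and 26.04. The 1g array of pair 1 stood apart from the other arrays of pairs 1 and 2, at 26.04 on the first and -14.09 on the second component.

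No gene passed the test between 1g and the incubator. limma called 0 of 14489 genes (0%) at an adjusted p below 0.05, with 453 genes (3.13%) at an unadjusted p below 0.05. With the arrays paired by number it also called 0 (0%), with 300 genes (2.07%) higher and 681 (4.7%) lower at an unadjusted p below 0.05, 6.77% of genes in all, and the lowest adjusted p from limma was 0.632. Without replicate 1 of both groups limma called 0 genes and the lowest adjusted p was 0.160. Without the 1g array of pair 1 alone it called 0, with a lowest adjusted p of 0.300. The median 95% interval of the paired fit, unadjusted across genes, reached 0.171 log2 units to either side of a gene's value. Adjustment over all genes asks for more. Even 0.44 for Snord15a was not called (adjusted p = 0.640 with limma, paired fit). Small differences in most genes, and some larger ones, were thus not detectable with 3 arrays a side. The arrays of the groups did not overlap for 799 genes (5.51%), 265 (1.83%) of them higher at 1g and 534 (3.69%) lower. Of the 6855 probe sets without a single gene symbol, limma called 0 with or without the pairing, and 703 (10.3%) lay at an unadjusted p below 0.05 in the paired fit. Mean differences were small: 7 genes differed by more than 0.5 log2 units and 0 by more than 1. In bulk RNA, fewer cells with a transcript and less of it per cell cannot be told apart.

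Since no gene was called, the genes with the smallest p of the paired fit whose 3 pairs differed the same way are given as values, 10 in each direction. Their adjusted p-values (limma, paired fit) lay between 0.632 and 0.688. All values are differences in log2 intensity, 1g minus incubator, with the standard error of the paired fit. Choosing by the paired p favours genes with a small error in that fit. Without the pairing, the adjusted p of these genes was 0.9996 (limma). The standard error was then 0.12 against 0.04 for Hexa and 0.25 against 0.07 for Herc3 (unadjusted p = 0.163 and 0.299 with limma). It was 0.10 in both fits for Ecrg4 and 0.09 in both for 6430503K07Rik.

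Rnf125 (probe set 10454198), an E3 ubiquitin ligase that acts on the RNA sensor RIG-I, had the most even pair differences of the 10 lower genes. It measured 9.90, 9.66 and 9.63 in the incubator and 9.50, 9.29 and 9.21 at 1g. The 3 arrays at 1g all lay below the 3 in the incubator, and the pairs differed by -0.39, -0.37 and -0.42 (mean -0.39 ± 0.08, adjusted p = 0.632 with limma). Rbbp6 (10557213), a RING-finger protein that binds p53 and Rb and takes part in pre-mRNA 3′ processing, was lower by -0.42, -0.40 and -0.20 in the 3 pairs. Its groups overlapped, because the 1g array of pair 3 (9.39) exceeded the incubator array of pair 2 (9.35). The other 2 probe sets of Rbbp6 had mean differences of -0.41 and -0.18, also lower in each pair.

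Ecrg4 (10345921), which encodes a secreted peptide precursor, measured 6.72, 6.90 and 6.74 in the incubator and 6.37, 6.39 and 6.30 at 1g. The groups did not overlap (mean difference -0.43 ± 0.10). Rcor3 (10361156), a member of the family of REST corepressors, had a mean difference of -0.24 ± 0.06. Ebf1 (10375360), a transcription factor of B cells and mesenchymal precursors, was at 11.01 ± 0.03 in the incubator and 10.84 ± 0.04 at 1g (SD, n = 3). Fgf7 (10475643), keratinocyte growth factor, was at 11.41 ± 0.08 and 11.18 ± 0.08. For these 4 genes each array at 1g lay below each array in the incubator. The ubiquitin ligase Herc3 (10538658) had a mean difference of -0.26 and the zinc finger gene Zfp28 (10549854) one of -0.31. The predicted transcript Gm10109 (10562731) had a mean difference of -0.56, uneven among pairs (-0.39, -0.19 and -1.11). The olfactory receptor gene Olfr1418 (10466268) measured 5.84, 5.85 and 6.35 in the incubator and 5.17, 5.54 and 5.34 at 1g. It was below the 40th percentile on 3 of 3 arrays at 1g and above it on 1 of 3 in the incubator, so no size is given for its difference.

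Of the 10 genes on the higher side, 4 encode small nuclear or nucleolar RNAs. Snord15a (10565813), a C/D box RNA of the class that guides ribose methylation of ribosomal RNA, measured 8.31, 8.22 and 7.98 in the incubator and 8.75, 8.58 and 8.51 at 1g. The groups did not overlap, and the mean difference was 0.44 ± 0.10 (adjusted p = 0.640 with limma). Snord49b (10376885) of the same class had 0.23 ± 0.05 and Snord73b (10499130) had 0.41 ± 0.11. Snora16a (10508719), an H/ACA RNA of the class that guides pseudouridylation, had 0.25 ± 0.06.

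The remaining higher genes encode proteins, with 1 exception. Stmn1 (10508986), which encodes the microtubule-destabilising protein stathmin, was at 11.68, 11.67 and 11.67 in the incubator and 11.80, 11.76 and 11.89 at 1g. Its groups did not overlap, and its second probe set differed by 0.13. Ppp1ca (10460376), a catalytic subunit of protein phosphatase 1, had a mean difference of 0.12 ± 0.03, Hexa (10585874), the alpha subunit of lysosomal hexosaminidase, 0.17 ± 0.04, and Mrpl15 (10352947), a protein of the large mitochondrial ribosomal subunit, 0.25 ± 0.06. The non-coding gene 6430503K07Rik (10476868) had 0.39 ± 0.09. Lce1i (10499935), of the cornified envelope of skin, measured 6, 5.92 and 6.43 in the incubator and 6.35, 6.42 and 6.95 at 1g. Its groups overlapped. Lce1i was above the 40th percentile on 3 of 3 arrays at 1g and 1 of 3 in the incubator. No size is therefore given for its difference. At the other positions, which share the incubator arrays and so are only set side by side, Snord15a differed from the incubator by 0.18 at 2g and 0.13 at μg, and Rnf125 by -0.20 and -0.30.

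**Figure D1:**
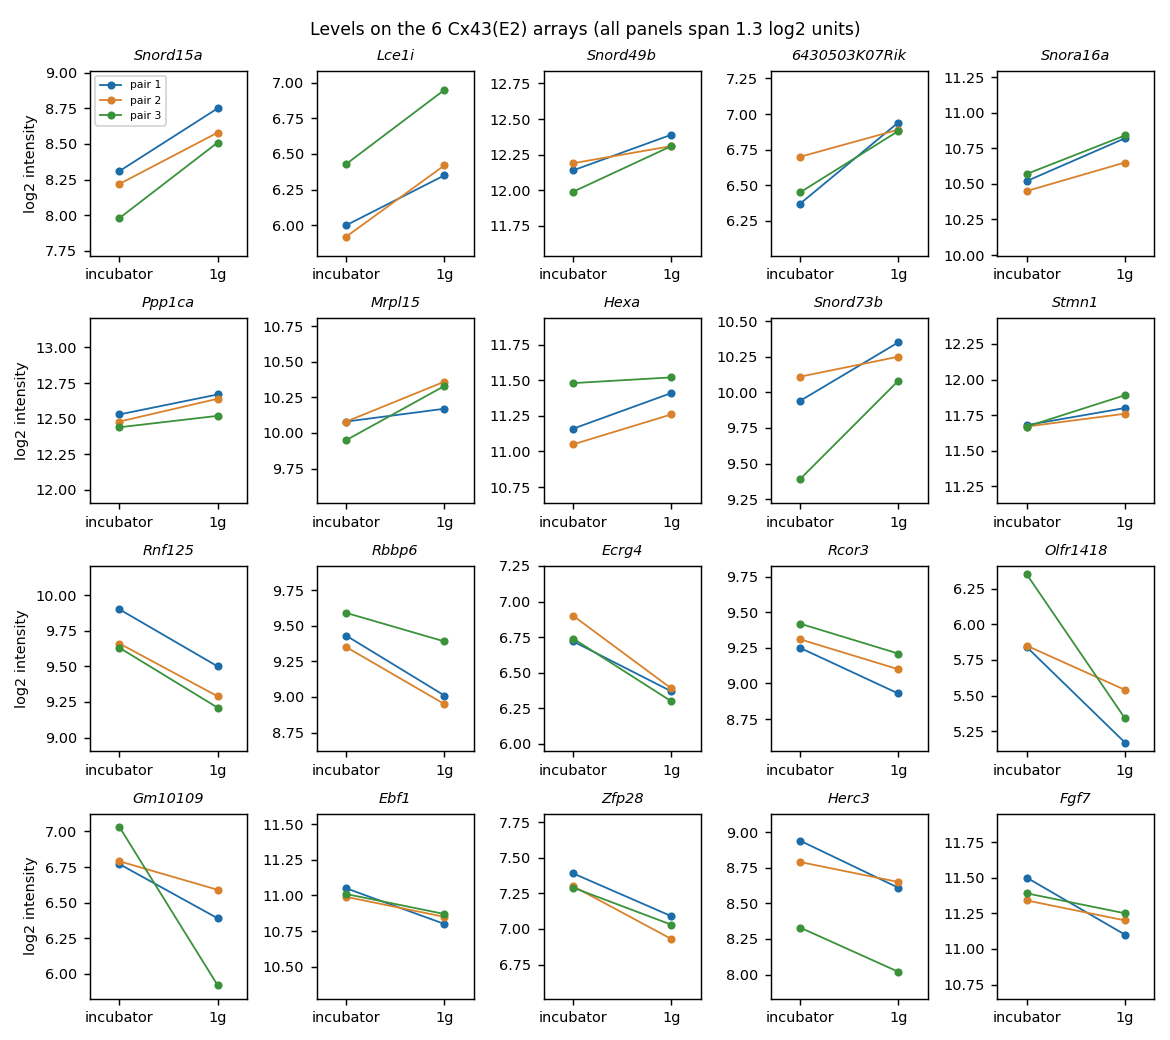
Log2 intensity on the 6 Cx43(E2) arrays for the 10 higher (upper rows) and 10 lower (lower rows) genes with the smallest p of the paired fit. Each line joins the incubator and the 1g array of a pair, and all 3 lines of each panel slope the same way because the genes were chosen so.

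The largest differences were not shared by the 3 pairs. The SD over genes of the within-pair difference was 0.233, 0.141 and 0.189 in pairs 1 to 3. Replicate arrays of the same group differed by an SD of 0.135 to 0.354. Across genes, which are not independent replicates, the differences of pairs 1 and 2 correlated at -0.0699, those of pairs 1 and 3 at -0.288 and those of pairs 2 and 3 at 0.195. Genes beyond 0.5 log2 units numbered 616 in pair 1 (51 higher and 565 lower), 53 in pair 2 (11 and 42) and 282 in pair 3 (55 and 227). The genes named for single pairs below were chosen after their values were seen, from the 10 largest differences in each direction.

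The largest differences of pair 1 came from its 1g array. Cenpe, a kinetochore motor, measured 8.59, 8.61 and 8.16 in the incubator and 7.03, 8.64 and 8.32 at 1g, so only the 1g array of pair 1 was low. The pair differences were -1.56, 0.03 and 0.16. The same array was the lowest of the 6 arrays for all 10 lowest genes of pair 1, among them Sgo2a (a protector of centromeric cohesion, -1.30 in pair 1), Stag2 (a cohesin subunit, -1.28), Rif1 (replication timing and DNA repair, -1.44) and Thoc2 (mRNA export, -1.31). Pairs 2 and 3 differed by 0.03 to 0.35 for the genes just named. The cell cycle and replication list as a whole (31 tested) had a pair 1 median of -0.04 and 18 genes with a higher mean.

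For the highest genes of pair 3, the incubator array of that pair was in several cases the low one. Ifi205, an interferon-activated gene, measured 9.20, 9.50 and 8.04 in the incubator and 8.61, 9.35 and 8.98 at 1g. Its pair differences were -0.59, -0.15 and 0.94. Ifit3b had -0.20, -0.48 and 0.86, and Trim12c had -1.20, -0.38 and 0.77, with opposite signs in pairs 1 and 3. For Trim12c the lowest array was the 1g array of pair 1 (6.44), below the incubator array of pair 3 (6.79). The interferon response list as a whole (18 tested) had pair medians of 0.08, -0.06 and 0.12 and a median of 0.02. The pseudogene Gm8624 was at 7.68 on the incubator array of pair 3 and between 9.19 and 9.45 on the other 5, which gave it the highest single difference of that pair, 1.66.

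Among the lowest genes of pair 3 were Egr1, an immediate early transcription factor, and 2 small nucleolar RNAs. Egr1 measured 9.24, 9.66 and 9.82 in the incubator and 9.34, 9.80 and 8.92 at 1g, with pair differences of 0.10, 0.13 and -0.90. Snord118 (the U8 RNA, needed to process ribosomal RNA) had 0.17, 0.08 and -0.92, and Snora44 had 0.09, -0.05 and -0.88. Pdk4, a kinase that inhibits pyruvate dehydrogenase and so spares glucose, was even in the incubator (10.36, 10.32 and 10.31) and spread at 1g (9.12, 10.76 and 9.49). It was lower in pairs 1 and 3 by -1.24 and -0.82 and higher in pair 2 by 0.45. In pair 2 the highest gene was the muscle actin gene Acta1 (0.64), at -0.22 and -0.08 in pairs 1 and 3.

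**Figure D2:**
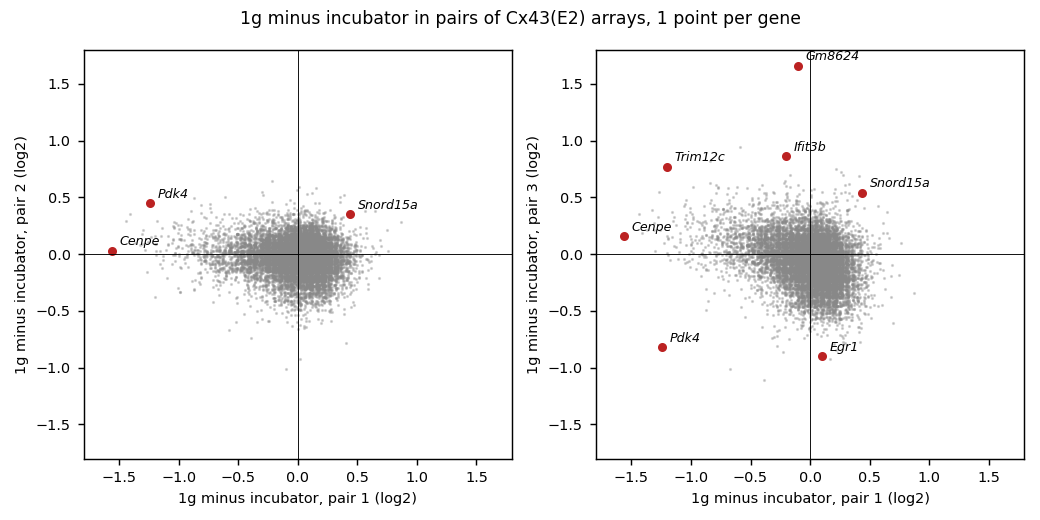
Difference in log2 intensity, 1g minus incubator, in pair 2 (left) and pair 3 (right) against pair 1, with 1 grey point for each of 14489 genes and named genes in red. The cloud stretches to the left along pair 1 (565 genes below -0.5), Cenpe differs in pair 1 alone, and Snord15a is the labelled gene that is high in all 3 pairs.

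Connexin and pannexin genes were tested for 11 of the 22 on the list. limma called 0 of the 11, as over all genes (0%), with 0 higher and 2 lower at an unadjusted p below 0.05 in the paired fit. Their median difference was -0.03 against -0.02 over all genes tested. Gja1 (10363173), the gene of the antibody's target, measured 11.88, 11.85 and 11.38 in the incubator and 11.79, 11.86 and 11.37 at 1g. The pairs were nearly level (-0.09, 0.01 and -0.01), while pair 3 was lower than the others in both groups, and the 95% interval of the mean difference of -0.03 ran from -0.13 to 0.07. Panx2, a pannexin of large-pore channels, had 0.20, -0.40 and -0.55, Gja4 (connexin 37) -0.02, -0.48 and -0.10, and Gjd3 0.16, -0.30 and -0.37. Panx3, a pannexin of bone and cartilage cells, had a mean of 0.09.

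Genes of signalling by ATP and prostaglandin E2, which hemichannels release, were read at the level of RNA. These arrays did not measure the release of either. Of 23 purinergic genes 13 were tested, with 0 called, a median of -0.07, and 1 higher and 2 lower in 3 of 3 pairs (over all genes 10.2% were higher in 3 pairs and 12.2% lower). The median level of this list (6.54) lies in the dimmest quartile of genes, whose median difference was also -0.07. The list's median was -0.01 after cyclic loess, 0.01 after quantile normalization and 0.01 without pair 3. P2ry2, a receptor for ATP and UTP, had 0.41, 0.06 and -0.12, with a mean of 0.11. The ATP-gated channel gene P2rx1 and the ATP-degrading enzyme gene Entpd2 were above the 40th percentile on 1 of 6 arrays, in the incubator, and the receptor gene P2ry1 on 3 of 6, so no sizes are given for them. For prostaglandin E2, 11 of 13 genes were tested, 0 were called and the median was -0.03, or 0.05 without pair 3.

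Ptgs2, which encodes the inducible cyclooxygenase that starts prostaglandin synthesis in loaded osteocytes, was level. It measured 12.84, 12.87 and 12.91 in the incubator and 12.84, 12.87 and 12.90 at 1g. The mean difference was -0.01, with a 95% interval from -0.08 to 0.06. Of the synthases, Ptges measured 12.42 ± 0.02 in the incubator and 12.50 ± 0.06 at 1g (SD, n = 3), Ptges2 differed by 0.13 and Ptges3 by -0.11. The other probe sets of Ptges3 differed by -0.09 and -0.20. Ptger2, the EP2 receptor gene, differed by 0.13. Ptgs2 was named after its values were seen.

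Mechanosensitive channel genes were tested for 13 of 17, with 0 called, a median of -0.05, and 0 higher and 3 lower in 3 of 3 pairs (23.1% lower, against 12.2% over all genes). Piezo2, a stretch-gated cation channel, measured 6, 5.97 and 6.01 in the incubator and 5.88, 5.67 and 5.76 at 1g. All 6 values lay below the 40th percentile of their array, so no size is given for its difference, although it is 1 of the 3 genes lower in each pair. Piezo1, its relative, had 0.17, 0.19 and -0.13, and its other 2 probe sets had the same signs. Trpm7, a channel with a kinase domain, and Cacna2d1, a calcium channel subunit, were lower in pair 1 alone (-0.80 and -0.78). Their other pairs differed by -0.02 to 0.26.

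Osteocyte identity genes were tested for 9 of 14, with 0 called and a median of 0.00. Fgf23, the phosphate hormone of osteocytes, had 0.07, -0.36 and -0.23, and the others named (Hyou1, Pdpn and the actin-capping gene Capg) had means of 0.07, 0.05 and 0.04. The osteoclast control list of 7 genes had 0 called and a median of -0.10, which was -0.03 after quantile normalization and 0.01 without pair 3. Sema3a, a bone-protecting semaphorin, differed by -0.57 in pair 1 and by -0.08 and 0.00 in the others. Tnfsf11 (RANKL, the main osteoclast signal, named after its values were seen) had pairs of 0.28, -0.20 and -0.45. The chemokine genes Cx3cl1 and Ccl2 had means of 0.11 and 0.08, and Il34, a ligand of the CSF1 receptor, -0.12.

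Secreted antagonists of Wnt and BMP signalling, which restrain bone formation, had a lower mean at 1g for 9 of 9 genes tested (of 15). For Dkk3 the difference rounded to 0.00. A lower mean was found for 57.4% of all genes and for 64.8% of the second-dimmest quartile, in which the median level of this list (7.07) lies. None of the 9 was called by limma, 2 lay lower at an unadjusted p below 0.05 in the paired fit, and the median was -0.10, against -0.02 over all genes. Grem1 (gremlin, a BMP antagonist) measured 12.75, 12.77 and 12.96 in the incubator and 12.64, 12.62 and 12.86 at 1g. Its groups overlapped because pair 3 was high in both, and the 3 pairs differed by -0.11, -0.15 and -0.11. Wif1, a Wnt inhibitor, measured 6.44, 6.52 and 6.56 in the incubator and 6.32, 6.25 and 6.22 at 1g, and its groups did not overlap. Nog and Chrd, both BMP antagonists, had means of -0.15 and -0.10 with a higher value in pair 1, and Sost had 0.07 in pair 1 with a mean of -0.08. The list's median was 0.05 in pair 1, -0.16 in pair 2 and -0.20 in pair 3. It was -0.21 without pair 1, and it shrank to -0.04 after cyclic loess and to -0.02 after quantile normalization.

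Cholesterol synthesis genes were tested for 20 of 24, and 17 had a higher mean at 1g. A higher mean was found for 42.6% of all genes and for 60.7% of the brightest quartile, in which the median level of this list (10.22) lies. None was called by limma, 0 lay at an unadjusted p below 0.05 in the paired fit, and 2 were higher and 1 was lower in 3 of 3 pairs. The median of 0.06 came from pairs of 0.12, -0.07 and 0.16, and it was 0.02 without pair 1 and 0.13 without pair 2. Mvd, which makes isopentenyl diphosphate, differed by 0.15, Fdps (farnesyl diphosphate synthase) by 0.06 and Nsdhl, a late sterol enzyme, by 0.11. Idi1, the isomerase that follows Mvd, was lower by -0.46 and -0.16 in pairs 1 and 2 and higher by 0.15 in pair 3.

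Immediate early genes, the first transcripts after a stimulus, split evenly: 14 of 28 had a higher and 14 a lower mean, with 0 called and a median of 0.00. The medians of the pairs were 0.15, 0.04 and -0.19, so the list as a whole lay higher at 1g in pair 1 and lower in pair 3. Of the 28 genes, 2 were higher and 1 was lower in 3 of 3 pairs. The growth-arrest factor gene Klf4 was higher (0.20, 0.10 and 0.19) and the orphan receptor gene Nr4a2 lower (-0.04, -0.19 and -0.22). Maff (0.36, 0.16 and -0.01) and Klf2, which responds to fluid flow in endothelium (0.14, -0.18 and -0.21), had pairs of both signs.

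**Figure D3:**
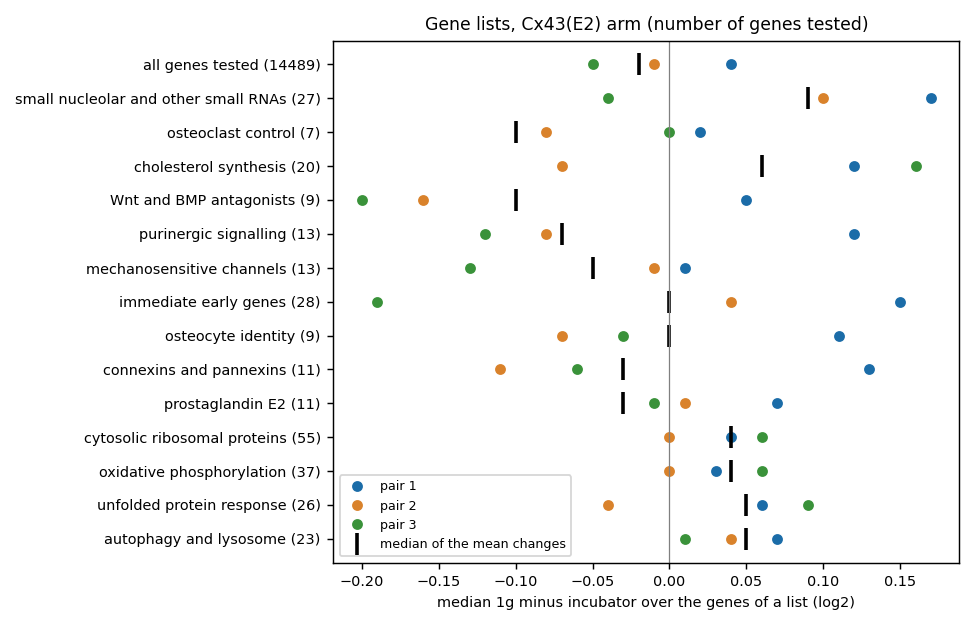
Median difference in log2 intensity, 1g minus incubator, over the tested genes of each list in pair 1, 2 and 3 (coloured points) and of the mean differences (black bars), with all 14489 genes in the first line. For immediate early genes the points run from 0.15 in pair 1 to -0.19 in pair 3, and for ribosomal proteins they lie between 0 and 0.06.

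The small nucleolar and Cajal body RNAs were taken as a class by RefSeq biotype, 50 of which were tested. Of these, 14 (28%) were higher in 3 of 3 pairs and 2 (4%) lower, against 10.2% and 12.2% over all genes, and limma called 0. At an unadjusted p below 0.05 in the paired fit, 8 were higher and 0 lower, against 2.07% and 4.7% of all genes. Their median difference was 0.06 and ran from -0.28 to 0.44. Without pair 1, 2 or 3 the median was 0.05, 0.04 or 0.11. The same class had a median of 0.08 between 1g and the incubator in the IgG arm. A shorter list of small RNAs, 27 of 45 tested, had a median of 0.09 with 20 genes higher. Most of its tested genes are also among the 50, so it is not separate evidence. This list was described because its median lay farthest from that of all genes. On it, Snord47 was uneven (0.26, -0.02 and 0.72) and Snora52 had a mean of 0.08. Snord73b, named above, carries another biotype and is not among the 50.

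Most of these RNAs are cut from introns of host genes, and 24 of the 50 lay in a single tested host. Over these 24 the small RNAs had a median difference of 0.06 and their 21 hosts one of 0.01. The small RNA had a higher value than its host in 13 of the 24 and a lower one in 11. The examples were chosen after their values were seen. Snord15a differed by 0.44 and its host Rps3, a ribosomal protein gene, by 0.01 (pairs of 0.07, 0.04 and -0.07). Snord15b, of the same host, had 0.37, 0.13 and -0.20. Snord14e, in the chaperone gene Hspa8, was higher by 0.32, 0.23 and 0.39, while Hspa8 differed by 0.06. Snora23, in the importin gene Ipo7, was higher in each pair (mean 0.18), while Ipo7 had -0.65, 0.12 and 0.23. In the other direction, Snord16a had a mean of -0.10 and its host Rpl4 one of 0.06, and Snora3 had -0.01 and Rpl27a 0.09. Snora75 also lay below its host Ncl (nucleolin). Its means of 5.86 in the incubator and 5.58 at 1g were under the lowest 40th percentile of an array (5.91), so no size is given for its difference.

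The direction that the 3 pairs shared varied with the level of a gene. Among the brightest quartile of genes (mean level 9.78 to 13.79), 19.6% were higher in 3 of 3 pairs and 8.59% lower. Among the dimmest quartile (5.44 to 6.83), 3.51% were higher and 18.5% lower. The median of the dimmest quartile was 0.08 in pair 1, -0.10 in pair 2 and -0.18 in pair 3, so it did not have 1 direction. In the IgG arm the 3 medians of that quartile were 0.03, 0.07 and 0.08.

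Classes of genes should be read against that background. Long non-coding genes, with a median level of 6.62, were lower in mean for 290 of 388 (against 57.4% of all genes and 74.4% of the dimmest quartile) and lower in 3 of 3 pairs for 22.9%. Precursors of miRNAs were lower in mean for 84 of 104. Both medians moved nearly to 0 with other scalings: from -0.07 to -0.02 (cyclic loess) and -0.01 (quantile) for long non-coding genes, and from -0.06 to -0.03 and -0.01 for miRNAs. Among bright lists, 45 of 55 cytosolic ribosomal protein genes had a higher mean, with 19 (34.5%) higher in 3 pairs and 1 lower. The respiratory chain list had 12 of 37 (32.4%) higher in 3 pairs and the list of the unfolded protein response 8 of 26 (30.8%), and the list of autophagy and lysosome genes 7 of 23 (30.4%). In the brightest quartile, in which the median levels of these 4 lists lie, 60.7% of genes had a higher mean. Of that quartile, 19.6% were higher in 3 of 3 pairs and 8.59% lower. The medians of these 4 lists were 0.04 to 0.05, and limma called 0 of their genes. These medians shrank as well, to 0.02 or 0.03 after cyclic loess and after quantile normalization.

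**Figure D4:**
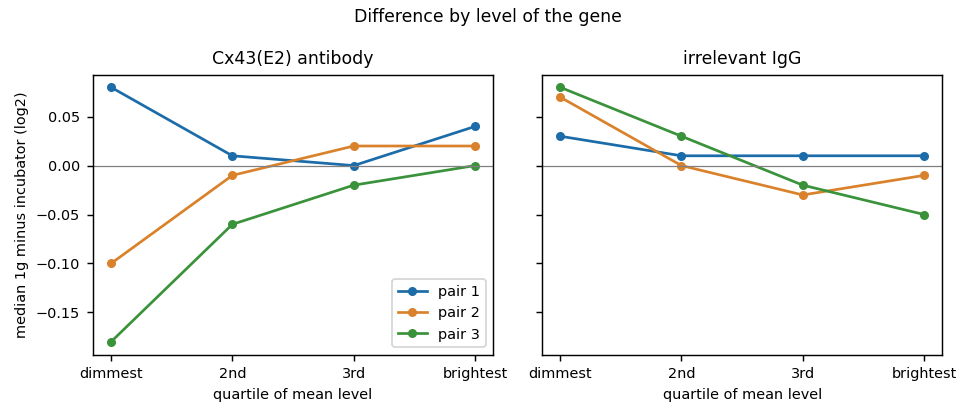
Median difference in log2 intensity, 1g minus incubator, for genes in quartiles of mean level, by pair, with Cx43(E2) on the left and irrelevant IgG on the right. The dimmest quartile lies at 0.08, -0.10 and -0.18 in the 3 Cx43(E2) pairs, and the brightest at 0.04, 0.02 and 0.00.

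Whether the difference at 1g depended on the antibody was tested as the difference between the arms, each against its own incubator arrays. limma called 0 of 14489 genes (0%), with 681 at an unadjusted p below 0.05. With the arrays paired it called 0, with 1123 (7.75%) at an unadjusted p below 0.05 and a lowest adjusted p of 0.275. The 5 genes with the smallest p had opposite signs in the arms, which a choice by the difference between arms favours. Ecrg4 had -0.34, -0.50 and -0.44 in the Cx43(E2) pairs and 0.21, 0.32 and 0.42 in the IgG pairs. Hnf4aos (10489372), an antisense transcript of Hnf4a, had a mean of -0.26 against 0.37, Gm10451 (10396669) -0.27 against 0.31, and the immunoglobulin-domain gene Vsig8 (10351843) -0.28 against 0.17. Rrs1 (10344723), a ribosome assembly factor, was higher with Cx43(E2) (0.38, 0.33 and 0.42) and lower with IgG (-0.38, -0.02 and -0.83). Ecrg4, Hnf4aos and Gm10451 (mean levels 6.58, 6.32 and 6.14) lie in the dimmest quartile of genes. The median of that quartile also had opposite signs, -0.07 with Cx43(E2) and 0.06 with IgG. Vsig8 (6.98) and Rrs1 (7.88) lie in the second-dimmest quartile, with medians of -0.04 and 0.02, and Rrs1 had the reverse signs. The part of gene level in these differences between arms was not tested. With the pairs as a random block, limma called 2 genes for the difference between arms, Ecrg4 (-0.75, adjusted p = 0.0304) and Hnf4aos (-0.63, adjusted p = 0.0304).

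In the IgG arm the paired fit called 7 genes (0.0483%) at 1g, and their values with Cx43(E2) come from other arrays. All 7 had the same sign of mean in the Cx43(E2) arm, and 5 had it in 3 of 3 pairs, but none was called there. Over all genes in that arm, 42.6% had a higher and 57.4% a lower mean, and 10.2% were higher and 12.2% lower in 3 of 3 pairs. Rnf125 differed by -0.39 ± 0.08 with Cx43(E2) and -0.49 ± 0.08 with IgG. Banp, a nuclear matrix binding protein gene, had 0.25 ± 0.07 and 0.51 ± 0.07. Serpinh1, the collagen chaperone HSP47, had 0.10 ± 0.05 and 0.32 ± 0.05, and Hspb1, a small heat shock protein gene, 0.04 ± 0.06 and 0.36 ± 0.06. The stress kinase gene Map3k20 had -0.10 and -0.26, Nipal1 -0.11 and -0.53 and Olfr810 -0.34 and -0.62. For none of the 7 did the difference between arms pass the test (adjusted p 0.616 to 0.842 with limma, paired fit), which does not show that the arms act alike.

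Directions in the arms were also set side by side over all genes. Of the 1483 genes higher in 3 of 3 Cx43(E2) pairs, 28.5% were also higher in the 3 IgG pairs and 13.6% lower, against 23.8% and 21.2% of all genes. Of the 1766 genes lower in 3 of 3 Cx43(E2) pairs, 30.7% were lower in the 3 IgG pairs and 19.6% higher.

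**Figure D5:**
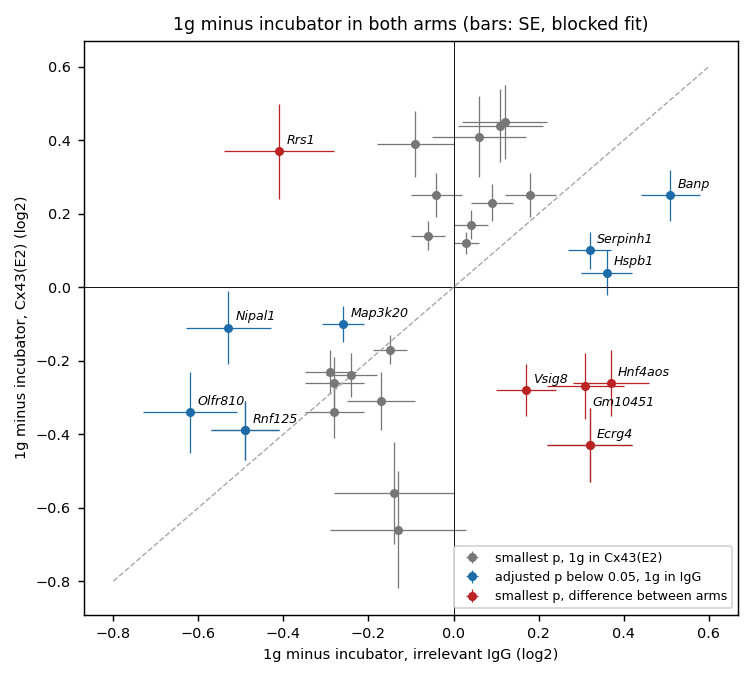
Difference in log2 intensity, 1g minus incubator, in the Cx43(E2) arm against the IgG arm, with standard errors of the paired fit as bars. Grey, blue and red points are the 20 genes with the smallest p in the Cx43(E2) arm, the 7 called in the IgG arm and the 5 with the smallest p between arms. Rnf125 lies near the dashed line of equal differences, Hspb1 and Nipal1 lie near 0 on the Cx43(E2) axis, and Ecrg4 lies at 0.32 with IgG and -0.43 with Cx43(E2).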

How the data were processed

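RNA of 24 samples was hybridised to Affymetrix arrays. The authors deposited 1 table of values, which by their range are log2 intensities. The submitters' processing notes name MAS5 without saying what it did, and how the arrays were scaled to one another is not given in the sources used here. Of 35556 probe sets, 21789 had exactly 1 gene symbol, 1621 had several and 12146 were not listed in the array's probe table. RefSeq's gene table matched 21698. Probe sets that reached the 40th percentile on 2 or fewer arrays were dropped, and the brightest of each gene was used (14489 genes, 754 with several probe sets). A further 6855 without a single symbol formed a separate test.

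limma 3.58.1 (R 4.3.3) was fitted with 8 group means over all 24 arrays, moderated variances with a trend, two-sided, Benjamini-Hochberg adjustment, threshold 0.05. The code was tested on simulated data. The members and gene lists were chosen with earlier results of these data known. Numbers in the titles were checked as pairs: deviations of same-numbered 1g and incubator arrays from their group means correlated at 0.195, 0.486 and 0.615 across genes, all above 0.1, so the paired fit takes arm and number as a block. Arrays numbered 1 and 2 also correlated with each other (0.180 and 0.482), so the numbers part mainly number 3 from the rest. The pairing is read from the values, not from a label.

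Named genes follow a rule: those past the threshold in either fit or, with none, the 10 in each direction with the smallest paired p and pairs of 1 sign. Added were up to 4 genes per described list with the smallest paired p, the 5 with the smallest p between arms, and Gja1. The described lists are those of the study's question and those whose median lay farthest from that of all genes. Other genes were chosen after their values were seen. Alternatives were the block, quantile normalization, no filter, the mean of a gene's probe sets, no variance trend, only the 6 arrays and leaving out arrays. Cyclic loess and a random block were added after seeing the data. Precision is limited by the number of arrays.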

Additional observations from a re-analysis of the deposited data

How the results depend on the processing

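The count of 0 genes called between 1g and the incubator held in 22 of 22 alternatives, with 193 to 1478 genes at an unadjusted p below 0.05 and a lowest adjusted p (limma) of 0.160 to 0.9999. With the replicate block it was 0 with 981 genes at an unadjusted p below 0.05, against 453 without, and leaving out arrays gave 0 to 0 calls. Probe sets without a single symbol also gave 0 calls, with 475 of 6855 at an unadjusted p below 0.05 (703 with the block). The difference between arms gave 0 calls in 20 of 21 alternatives and 2 with the random block, chosen after seeing the data (consensus correlation 0.355). The cause was not tested.

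Of 1386 recomputed differences of the 63 named genes, 1358 kept their direction and 28, of 15 genes, turned when arrays were left out. What turned them was not tested. Over these settings the difference ran from -0.19 to 0.12 for Gja1, -0.38 to 0.01 for Entpd2, -0.03 to 0.32 for P2ry2, -0.25 to 0.03 for P2ry1, -0.37 to 0.10 for Cacna2d1, -0.06 to 0.23 for Piezo1, -0.50 to 0.12 for Trpm7, -0.01 to 0.12 for Hyou1 and 0.00 to 0.12 for Pdpn. It ran from -0.02 to 0.33 for Klf4, -0.02 to 0.29 for Maff, -0.21 to 0.02 for Klf2, -0.01 to 0.13 for Ccl2, -0.06 to 0.25 for Nsdhl and -0.21 to 0.06 for Chrd. No scaling turned a named gene. With 3 arrays a side, the standard error of a gene's difference had a median of 0.103 without and 0.0821 with the block.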
